A study of Mus musculus with 4 samples.

Results

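Ly6c2+ MHC class II high transitional monocytes were cells of the mouse colon whose RNA carried the monocyte gene Ly6c2 together with a high level of the MHC class II genes. Among 6954 deposited cell barcodes, 4543 had at least 1000 UMIs (unique molecular identifiers, each marking 1 captured RNA molecule), at least 317 genes, up to 7% mitochondrial UMIs and under 20% immunoglobulin UMIs. Levels are given as CP10k, UMIs per 10000 UMIs of the barcode or of the summed barcodes. The members had at least 3 CP10k of Ly6c2, and their summed CP10k of H2-Aa, H2-Ab1 and H2-Eb1 was at or above the median of the kept barcodes, 485 CP10k. They numbered 126 of 4543, of which DEP 11 gave 50, DEP 13 gave 11, PBS 2 gave 41 and PBS 3 gave 24. The same 2 limits put 707 barcodes in a Ly6c2+ MHC-II low gate, 2146 in a Ly6c2 low MHC-II high gate and 1564 in a Ly6c2 low MHC-II low gate.

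The cells came from the colon lamina propria of 4 male mice of the strain C57/Bl6N, for which no genetic change was named and whose age was not given in the sources used here. Both DEP mice had received 12 µg of diesel exhaust particles in 200 µL of phosphate-buffered saline by gavage on 5 days per week for about 6 months, and both PBS mice had received the buffer alone. Cells positive for CD11b and for Ly6C or CD64 were sorted, so a marker of the gate had also been used in the sort, and each mouse filled 1 well of a droplet-based 3' single-cell assay. The question was how the monocytes and macrophages of the gut respond to swallowed air pollutants.

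Circulating Ly6C high monocytes enter the healthy colon continuously through the chemokine receptor CCR2 and mature there into resident macrophages. On the way they gain MHC class II before they lose Ly6C, and later lose CCR2 and gain CX3CR1, F4/80 and complement C1q, so that Ly6C+ MHC class II+ cells are held to be a passing stage between blood monocyte and macrophage. MHC class II molecules present peptides of swallowed material to CD4 T cells, and their genes are switched on together by the transactivator CIITA, which docks on factors bound to the X and Y boxes in front of each gene.

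Total counts were 4489342 to 10293703 UMIs per library, with DEP 13 the lowest. The summed members reached 219237 UMIs (DEP 11), 55799 (DEP 13), 301275 (PBS 2) and 116697 (PBS 3), so the 11 members of DEP 13 gave the least precise values. In PBS 3 the immunoglobulin light chain gene Iglc2 stood at 3.26 to 3.68 CP10k in every gate, against 0.263 to 0.538 CP10k in the other libraries, which set that library apart. Between libraries 36 barcode strings were shared, 2 members among them, and doublet calls marked 61 kept barcodes, of which 1 was a member. Doublet scores above the limit for the top 6% of each library, with ties at the limit left below it, were held by 7 members (5.56%), 5 of PBS 2, 2 of PBS 3 and none of the DEP mice, against 1.27% of the Ly6c2+ MHC-II low and 5.13% of the Ly6c2 low MHC-II high barcodes, and the part of doublets in the results was not tested beyond leaving these barcodes out. The labels name separate mice, so the mouse was the replicate, with 2 mice per group, or 4 mice within gates. The p-values of the gene tests draw on a spread estimated over many genes together. A small p therefore does not show that the mice agreed for that gene. Ccl5, for example, passed as higher with DEP although DEP 13 was its lowest mouse.

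The label was checked against its markers, of which Ly6c2 and H2-Ab1 had been used for the choice and are given as a description. Over the 126 members Ly6c2 had a median of 4.77 CP10k, with quartiles of 3.64 and 7.21 and a highest value of 40.1 CP10k. The summed MHC class II level had a median of 543 CP10k and ran from 485 to 836 CP10k. The choice rested on few molecules, since 22 members held 1 Ly6c2 UMI, 38 held 2 and 66 held 3 or more. Just inside the Ly6c2 limit lay 45 members at 3.05 to 3.98 CP10k, and just outside it 134 MHC-II high barcodes at 2.0 to 2.98 CP10k. Just inside the MHC limit lay 56 members at 485 to 530.0 CP10k, and just below it 57 Ly6c2+ barcodes at 437 to 484 CP10k. The members therefore formed the edge of 2 continuous distributions, with no gap at either limit.

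**Figure D1:**
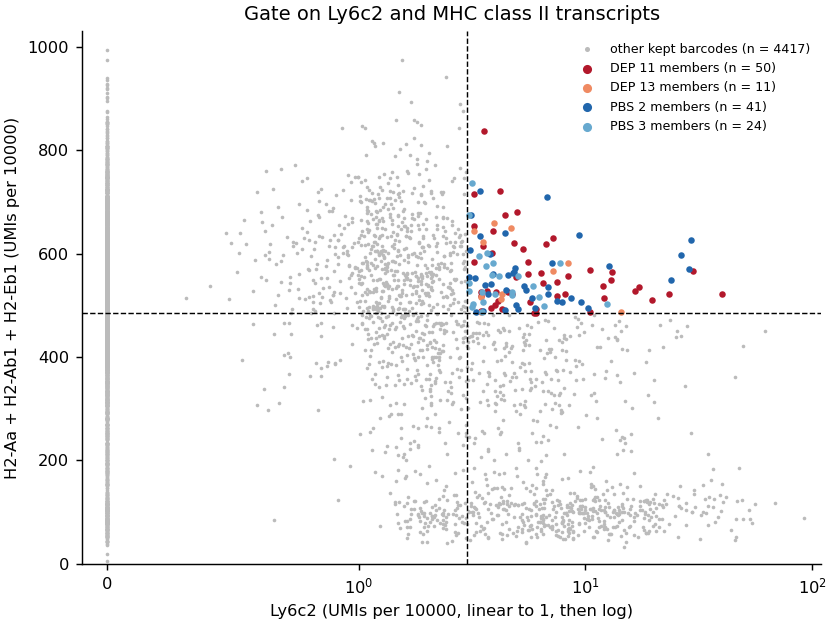
Each point is 1 of 4543 kept barcodes, with Ly6c2 (UMIs per 10000, linear up to 1 and logarithmic above) against the summed H2-Aa, H2-Ab1 and H2-Eb1 (UMIs per 10000), and dashed lines mark the 2 limits. The 126 members, coloured by mouse, lie above 485 and at or right of 3, next to the 134 barcodes at 2.0 to 2.98 that miss the Ly6c2 limit.

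The remaining markers and a split of the UMIs tested what the choice did not use. Ccr2 (chr9:124101950-124113557, mm10) was 9.49 (DEP 11), 9.68 (DEP 13), 6.57 (PBS 2) and 5.83 (PBS 3) CP10k in the summed members, and Cd74, the class II invariant chain, was 516 (DEP 11), 547 (DEP 13), 465 (PBS 2) and 524 (PBS 3) CP10k. Both given markers were thus present in all 4 mice, but also outside the members. Summed over the mice, Ccr2 was 7.48 CP10k in Ly6c2+ MHC-II low and 3.34 in Ly6c2 low MHC-II high barcodes. Cd74 was 171 and 573 CP10k there. The Ly6c2 low MHC-II low gate had 5.88 CP10k of Ccr2 and 315 of Cd74. The 1614 barcodes with under 500 UMIs, too few to be kept, carried 3.86 and 119 CP10k. Presence alone therefore does not set the members apart. When each barcode's UMIs were divided at random into 2 equal parts, 1 for the gate and 1 for the values, 205 barcodes entered the gate, of which 84 were among the 126. In the part not used for the gate, their Ly6c2 was 3.3 ± 1.77 CP10k (SD, n = 4 mice, range 0.986 to 5.19), compared with 8.83 ± 1.67 in Ly6c2+ MHC-II low and 0.495 ± 0.199 in Ly6c2 low MHC-II high barcodes. The MHC class II sum in that part was 578 ± 30.6 CP10k, compared with 198 ± 22.1 and 605 ± 18.3 CP10k. The lowest mouse of the gate was above the highest Ly6c2 low MHC-II high mouse (0.708 CP10k) for Ly6c2, and all 4 mice were below the lowest Ly6c2+ MHC-II low mouse (6.93 CP10k).

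Markers of T cells, B cells, neutrophils, eosinophils and mast cells were near 0 in the members, and those of plasma and dendritic cells were not. Of 6 T cell genes only Cd2 had any UMI (6 in all), and Cd3d, Cd3e, Cd3g, Trac and Trbc2 were at 0. Of 4 B cell genes 3 were at 0, Cd79a and Ms4a1 among them, and Cd79b had 16 UMIs (0.231 CP10k). Of the 5 neutrophil genes Retnlg, S100a8, S100a9 and Cxcr2 were at 0 and Csf3r had 30 UMIs (0.433 CP10k). Both mast cell genes, Siglecf and Epx were at 0 as well. The plasma cell list summed to 32.4 (DEP 11), 48.2 (DEP 13), 44.8 (PBS 2) and 68.2 CP10k (PBS 3), most of it Igkc, and every member carried at least 2 such UMIs. The dendritic cell list summed to 4.65 (DEP 11), 12.2 (DEP 13), 5.71 (PBS 2) and 7.63 CP10k (PBS 3), against 2.97 CP10k over the Ly6c2+ MHC-II low and 5.51 over the Ly6c2 low MHC-II high barcodes. No member level of an immunoglobulin gene is read here as expression by the monocytes.

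How the members varied was described with genes outside the gate. Plac8, a gene of young monocytes, had a median of 10.5 CP10k over the 126 members with quartiles of 4.17 and 25.1, and 16 members held none. C1qa, a complement gene of macrophages, had a median of 21.9 CP10k with quartiles of 10.3 and 41.3, and 4 members held none. The members therefore spanned a wide range in both directions. Grouped by Ly6c2, the 45 members at 3 to 4 CP10k summed to 13.7 CP10k of Plac8 and 34.0 of C1qa. The 61 members at 4 to 10 CP10k summed to 19.4 and 25.4, and the 20 members at 10 CP10k or more to 27.7 and 20.4. Plac8 and C1qa thus ran in opposite orders along Ly6c2, with Il1b at 50.2, 56.7 and 51.7 CP10k in no order. These bands pool the mice and carry no test.

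To see whether single members carried both programmes, each kept barcode was thinned to 1000 UMIs, which left none out. Plac8 was then seen in 64.3% of members, 89.3% of Ly6c2+ MHC-II low and 26.1% of Ly6c2 low MHC-II high barcodes. C1qa was seen in 82.5%, 60.1% and 96.0%. Both together were seen in 49.2% of members, compared with 51.9% and 24.0%. In 80 barcodes rich in immunoglobulin the shares at the same depth were 36.3% for Plac8, 63.8% for C1qa and 21.3% for both. Since their Plac8 share lay above that of the Ly6c2 low MHC-II high barcodes, they give no measure of free RNA alone, and no share is read here as expression above a background. Without thinning the shares in members were 87.3%, 96.8% and 84.1% at a median of 5329 UMIs, and in the immunoglobulin-rich barcodes 93.8%, all 80 and 93.8% at a median of 20942 UMIs.

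Next, the members were compared with the Ly6c2+ MHC-II low barcodes of the same mice, to see what else differed in barcodes with Ly6c2 when the MHC class II genes were high. UMIs were summed per mouse and gate and tested with edgeR's quasi-likelihood test with the mouse as a block and Benjamini-Hochberg adjusted p-values. Of 5681 genes tested without the gate genes, 387 passed at 5% (6.81%), 190 higher (3.34%) and 197 lower (3.47%) in the members. DESeq2 called 114 higher and 76 lower, and without DEP 11 the count was 256. The median log2 difference over all genes tested was -0.02. The genes were read in the same cells as the gate, and the test compares cells chosen for a high and a low MHC class II level, not a course in time.

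The machinery of MHC class II presentation moved with the gate genes. Of its 16 listed genes 11 were tested, 7 were higher and none was lower, with a median log2 difference of 0.87. Cd74, which escorts class II dimers to the endosome, was 513 ± 34.7 CP10k (SD, n = 4 mice) in the members and 169 ± 18.8 in the MHC-II low gate (log2 difference 1.65 ± 0.08 (SE), adjusted p = 4.7e-96). H2-DMa (chr17:34119541-34139101), a chain of the peptide exchange factor, was 19.9 (DEP 11), 20.3 (DEP 13), 17.7 (PBS 2) and 17.8 (PBS 3) CP10k in the members against 10.6 ± 1.06 (log2 difference 0.87 ± 0.10, adjusted p = 2e-17). In each of the 4 mice the members were higher for both genes. H2-DMb1 and H2-DMb2, near-identical copies of the partner chain whose reads may be split uncertainly, were higher by 1.07 and 1.32 on the log2 scale (adjusted p = 1.2e-22 and 1.6e-23). Ctss, the protease that trims the invariant chain, rose less, from 34.3 ± 2.32 to 44.5 ± 4.06 CP10k (log2 difference 0.42 ± 0.09, adjusted p = 3.2e-05). Ciita (chr16:10480059-10528418), the transactivator itself, was 0.912 (DEP 11), 1.25 (DEP 13), 0.83 (PBS 2) and 0.343 (PBS 3) CP10k, compared with 0.362 ± 0.0378 (log2 difference 1.17 ± 0.28, adjusted p = 0.00089), and was higher in 3 of 4 mice. This call was lost without DEP 11, where the log2 difference was 1.03. H2-Oa was also higher (log2 difference 1.57 ± 0.51, adjusted p = 0.0353). The costimulatory genes Cd86 (log2 difference -0.14) and Cd40 (0.82), the thiol reductase gene Ifi30 (0.21) and Rfxap (-0.25) did not pass.

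The promoters of class II genes were searched for the X and Y boxes. They are printed for 2 genes of the gate, H2-Aa and H2-Eb1, whose level the choice fixed, and for the 2 DM copies, which passed the test, to show what the element looks like. Sequences are from RefSeq (GRCm38.p6), on the coding strand, 5′ to 3′. Capitals mark the X box, searched as AAC, 3 free letters and TGATG with the free letters in lower case, and the Y box, searched as TGATTGG, both on either strand.
H2-Aa: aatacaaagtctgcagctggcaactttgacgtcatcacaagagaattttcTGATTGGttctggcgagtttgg
H2-Eb1: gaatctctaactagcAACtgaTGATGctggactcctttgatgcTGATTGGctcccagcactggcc
H2-DMb1: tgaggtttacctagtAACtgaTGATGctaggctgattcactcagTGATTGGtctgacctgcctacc
H2-DMb2: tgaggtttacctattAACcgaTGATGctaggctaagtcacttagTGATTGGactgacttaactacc
They lie at chr17:34287852-34287923 (minus strand), chr17:34305763-34305827, chr17:34153084-34153149 and chr17:34145113-34145178. The Y box starts 50, 61, 63 and 92 bases before the annotated start. In H2-Eb1 the boxes lie 17 bases apart, and in both DM copies 18. The search covered 300 bases around each annotated start. Of 32851 such windows 7.82% held the Y box letters, 0.615% the X box letters and 17 windows (0.0517%) held both, H2-Eb1, H2-DMb1, H2-DMb2 and H2-Ob among them. H2-Aa, H2-Oa and H2-Eb2 held the Y box letters but not the X box letters searched, and neither window of H2-DMa held either, which says only that these letters are not in these windows. A match is a description of the letters and was not tested for binding.

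Genes of the blood monocyte fell. Of 20 listed genes 19 were tested, 15 were lower and none was higher in the members, with a median log2 difference of -1.97. Chil3 (chr3:106147554-106167564), a chitinase-like protein of young monocytes, was 2.83 (DEP 11), 1.08 (DEP 13), 1.39 (PBS 2) and 0.686 (PBS 3) CP10k in the members and 9.1 ± 1.77 in the MHC-II low gate (log2 difference -2.45 ± 0.15, adjusted p = 2.4e-59). Every member value lay below the lowest of the other gate. Plac8 (chr5:100553725-100572245) was 23.6 (DEP 11), 20.1 (DEP 13), 17.6 (PBS 2) and 10.1 (PBS 3) CP10k against 41.1 ± 3.27 (log2 difference -1.17 ± 0.09, adjusted p = 3.9e-34). Ifitm6 fell by 2.61 on the log2 scale (adjusted p = 2.5e-43), Ifitm3 by 0.97 and the calcium-binding genes S100a4 and S100a6 by 1.97 and 1.26. Haptoglobin (Hp), the transferase Mgst1, the matrix protein fibronectin (Fn1) and the actin regulator Tmsb10 fell by 1.99, 2.19, 2.20 and 1.19. Adjusted p-values of these were 2.4e-22 or lower, and all fell in 4 of 4 mice. The proteoglycan Vcan had 1 UMI in all members against 0.208 ± 0.0554 CP10k and passed (adjusted p = 0.00804), but not without DEP 11 or PBS 2, and no fold is given from so few counts.

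Ccr2 was not among them. It was 7.89 ± 1.98 CP10k in the members and 7.56 ± 0.68 in the MHC-II low gate (log2 difference 0.08 ± 0.11, adjusted p = 0.845), higher in 2 of 4 mice, and the sign of this small difference changed with the filters on barcodes and genes. The difference was smaller than its standard error, and an equal level is not shown.

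Genes of the resident macrophage rose. Of 24 listed genes 17 were tested, 12 were higher and none was lower, with a median log2 difference of 1.15. C1qa (chr4:136895917-136898803) was 26.7 (DEP 11), 29.9 (DEP 13), 26.9 (PBS 2) and 32.2 (PBS 3) CP10k in the members, compared with 9.99 ± 2.93 (log2 difference 1.59 ± 0.09, adjusted p = 5.8e-61), and its neighbours C1qb and C1qc, the other chains of complement C1q, rose by 1.65 and 1.61. The lowest member value of C1qa, 26.7, lay above the highest of the MHC-II low gate, 13.4 CP10k. Ms4a7, a membrane protein of macrophages, rose by 1.54, the apolipoprotein gene Apoe by 0.92 and the tetraspanin Cd81 by 1.29. The mannose receptor Mrc1 was 1.37 (DEP 11), 1.79 (DEP 13), 1.13 (PBS 2) and 1.11 (PBS 3) CP10k against 0.481 ± 0.0623 (log2 difference 1.43 ± 0.24, adjusted p = 2e-07). The fractalkine receptor Cx3cr1 (log2 difference 0.66, adjusted p = 0.00027) and Adgre1, which encodes F4/80 (log2 difference 0.63, adjusted p = 0.0011), rose less, and Adgre1 lost its call without PBS 3 (0.50). The survival genes Bcl2a1b and Bcl2a1d, near-identical copies, and Tmem176a rose by 1.59, 1.54 and 1.23. The Csf1 receptor gene Csf1r did not pass (log2 difference 0.32, adjusted p = 0.107), and Mertk, Folr2, Cd163, Lyve1, Timd4, Cd4 and Il10 were too low to be tested.

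The second comparison set the members against the Ly6c2 low MHC-II high gate of the same mice, to see what differed with Ly6c2 among barcodes that were all MHC-II high. Of 7032 genes tested 364 passed (5.18%), 153 higher (2.18%) and 211 lower (3.0%) in the members, around a median of -0.07 on the log2 scale over all genes. DESeq2 called 100 higher and 92 lower and limma voom 81 and 66, and the count fell to 203 without DEP 11 and to 174 without PBS 2. With the gate and the values from separate UMIs it was 97. Both comparisons share the members, so their results are not independent of each other and are given side by side.

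Here the monocyte genes were higher. Of 20 listed genes 15 were tested, 12 were higher and none was lower, with a median log2 difference of 1.34. Plac8 was 10.1 to 23.6 CP10k in the members and 3.5 ± 1.0 in the Ly6c2 low MHC-II high gate (log2 difference 2.21 ± 0.10, adjusted p = 3.9e-106). Ccr2 was 9.49 (DEP 11), 9.68 (DEP 13), 6.57 (PBS 2) and 5.83 (PBS 3) CP10k in the members and 3.67 (DEP 11), 2.72 (DEP 13), 3.44 (PBS 2) and 3.21 (PBS 3) in the Ly6c2 low MHC-II high gate (log2 difference 1.13 ± 0.11, adjusted p = 7.1e-21), and the lowest member value lay above the highest of that gate. Chil3 (log2 difference 1.45, adjusted p = 7.3e-10) and Fn1 (log2 difference 1.34, adjusted p = 0.00068) were higher too, Chil3 not without DEP 11 (0.81) and Fn1 not without PBS 2 (1.03). The largest difference among the 10 genes with the smallest p in this direction was Plac8, followed by Ms4a4c (1.70), the interferon-induced Ifitm3 (1.68) and the Ly6 family gene Ly6a (1.67). The others were Ifi27l2a, the leukotriene pathway gene Alox5ap, Lsp1, Tmsb10, the chemokine Ccl9 and S100a6, at 1.25 to 1.38, each higher in 4 of 4 mice with an adjusted p of 3.1e-21 or lower. Vcan was too low in both gates to be tested.

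The macrophage genes were lower. Of 24 listed genes 21 were tested, 16 were lower and none was higher, with a median log2 difference of -1.07. C1qa was 61.8 (DEP 11), 55.3 (DEP 13), 58.9 (PBS 2) and 52.3 (PBS 3) CP10k in the Ly6c2 low MHC-II high gate (log2 difference -1.08 ± 0.08, adjusted p = 9.8e-43), above every member value. Apoe (-0.90), the tetraspanins Cd63 (-1.72) and Cd81 (-1.39), C1qb, C1qc and Ms4a7 (-1.31) were among the 10 lower genes with the smallest p, as were the G protein regulator Rgs1 (-1.47), the apolipoprotein L gene Apol7c (-2.76) and the nonclassical class I gene H2-M2 (-2.31). Adjusted p-values were 2e-28 or lower. Cx3cr1 was lower by a smaller amount (log2 difference -0.42, adjusted p = 0.0244) and passed in none of the fits that left out DEP 11, PBS 2 or PBS 3 (-0.39 to -0.40). Adgre1 (log2 difference -0.69, adjusted p = 7.3e-06) was lower, and Mrc1 (log2 difference -0.54, adjusted p = 0.0547) did not pass.

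Both gates of this comparison were chosen for a high MHC class II level, so a smaller difference in class II machinery than in the first comparison was set by the choice. Of 16 listed genes 14 were tested, 5 were lower and none was higher, with a median log2 difference of -0.12. Cd74 was 513 ± 34.7 CP10k in the members and 583 ± 36.7 in the Ly6c2 low MHC-II high gate (log2 difference -0.28 ± 0.05, adjusted p = 1.2e-05), a call lost without DEP 11 (-0.29) and when the gate and the values came from separate UMIs (-0.16). H2-DMa (log2 difference -0.11, adjusted p = 0.672) and Ciita (log2 difference 0.26, adjusted p = 0.746) did not pass. Cd86, Ctss, H2-Oa and H2-Ob were lower. Without DEP 11 only 1 of the 14 genes passed, without PBS 2 it was 2, and with separate UMIs none of 12 tested did.

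**Figure D2:**
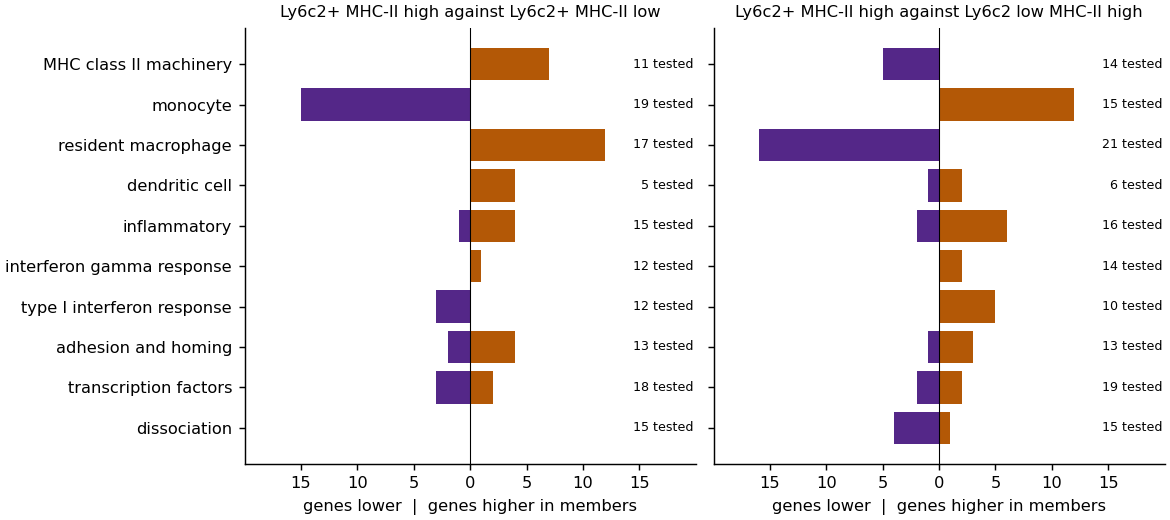
Bars give the number of listed genes that passed edgeR's quasi-likelihood test at an adjusted p of 5%, higher to the right and lower to the left, in members against each neighbouring gate, with the number tested at the right. Monocyte genes are lower against the MHC-II low gate (15 of 19) and higher against the Ly6c2 low gate (12 of 15), and resident macrophage genes run the other way (12 of 17 higher, 16 of 21 lower).

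Beside genes placed between the neighbours, some had their highest mean in the members. Il1b (chr2:129364570-129371139), which encodes the cytokine interleukin-1β, was 49.5 (DEP 11), 67.2 (DEP 13), 63.2 (PBS 2) and 29.3 (PBS 3) CP10k in the members. In DEP 13, 1 of the 11 members held 145 of the 375 UMIs, and without it that mouse stood at 47.1 CP10k. Il1b was 24.7 ± 10.1 CP10k in the MHC-II low gate (log2 difference 1.13 ± 0.09, adjusted p = 1.6e-35), 30.3 ± 6.61 in the Ly6c2 low MHC-II high gate (log2 difference 0.64 ± 0.08, adjusted p = 2.6e-15) and 30.8 ± 5.59 in the Ly6c2 low MHC-II low gate. Within each mouse the members were the higher in both comparisons, although the member value of PBS 3 lay below the highest mouse of either neighbour. The 1614 barcodes with under 500 UMIs, too few to be kept as cells, carried 45.5 CP10k of Il1b, and the part of such free RNA in the result was not tested. Il1rn, the natural inhibitor of interleukin-1, was 0.912 (DEP 11), 1.08 (DEP 13), 1.79 (PBS 2) and 1.97 (PBS 3) CP10k and also higher in both (1.25 and 1.05 on the log2 scale, adjusted p = 2.1e-06 and 2.8e-05). Ly6a, which encodes Sca-1, was 4.61 (DEP 11), 4.48 (DEP 13), 2.89 (PBS 2) and 1.29 (PBS 3) CP10k against 1.3 ± 0.595 and 0.898 ± 0.301 (adjusted p = 2.8e-14 and 1.5e-22), higher in 4 of 4 mice in both comparisons.

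The rest of the inflammatory list was mixed. Of 20 genes 15 were tested against the MHC-II low gate, with 4 higher and 1 lower, and 16 against the Ly6c2 low MHC-II high gate, with 6 higher and 2 lower. The median log2 differences were 0.17 and 0.38. Clec4e, the receptor Mincle, was 1.35 ± 0.569 CP10k in the members and 0.269 ± 0.0717 in the Ly6c2 low MHC-II high gate (log2 difference 2.08 ± 0.24, adjusted p = 8.6e-16), and 1.85 ± 0.348 in the MHC-II low gate (log2 difference -0.50, adjusted p = 0.12). Ccl2, the ligand of CCR2, was higher than in both neighbours (0.46 and 0.82, adjusted p = 0.0167 and 5.6e-08), with the first difference present in 2 of 4 mice. The neutrophil chemokine Cxcl2 (-1.07) and Ccl4 (-0.66) were lower than in the Ly6c2 low MHC-II high gate. Tnf (0.46 and 0.10), the inflammasome sensor Nlrp3 (0.17 and 0.31) and Casp1 (-0.21 and 0.29) passed in neither comparison, at member levels of 0.905 ± 0.727, 0.35 ± 0.0872 and 0.945 ± 0.464 CP10k. Saa3, at 0 (DEP 11), 0 (DEP 13), 1.63 (PBS 2) and 0 (PBS 3) CP10k, was lower than in the MHC-II low gate (log2 difference -1.11, adjusted p = 0.00052, not called without DEP 13 at -0.71) and higher than in the Ly6c2 low MHC-II high gate (log2 difference 1.39, adjusted p = 0.00061), where the sign turned when each mouse's own MHC median was used (-0.82). PBS 2 held every Saa3 UMI of the members. Il10 was 0.100 ± 0.0776 CP10k, 9 UMIs in all members, and did not pass against the Ly6c2 low MHC-II high gate (log2 difference -1.15, adjusted p = 0.187).

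Some genes of dendritic cells were found in the members. Of 15 listed genes 5 were tested against the MHC-II low gate and 4 were higher. Clec10a, a lectin shared by dendritic cells and macrophages, was 0.867 (DEP 11), 5.2 (DEP 13), 1.06 (PBS 2) and 1.37 (PBS 3) CP10k, against 0.491 ± 0.0778 (log2 difference 1.70, adjusted p = 3.2e-11) and 0.513 ± 0.0876 in the Ly6c2 low MHC-II high gate (log2 difference 1.46, adjusted p = 1.7e-09). DEP 13 was the highest mouse here. Its neighbour Mgl2 was higher than in the MHC-II low gate only (log2 difference 2.04, adjusted p = 2.4e-18; log2 difference -0.28, adjusted p = 0.477 against the Ly6c2 low MHC-II high gate). Cd209a, a marker of dendritic cells derived from monocytes, was 0.137 (DEP 11), 1.25 (DEP 13), 1.86 (PBS 2) and 0.0857 (PBS 3) CP10k and its calls rested on PBS 2, without which the log2 differences were -0.34 and -0.04 in place of 1.07 and 1.47. Itgax, which encodes CD11c, was higher than in the MHC-II low gate (1.89) and lower than in the Ly6c2 low MHC-II high gate (-1.19). The defining genes Zbtb46, Flt3, Ccr7, Xcr1 and Clec9a were too low to be tested in either comparison.

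**Figure D3:**
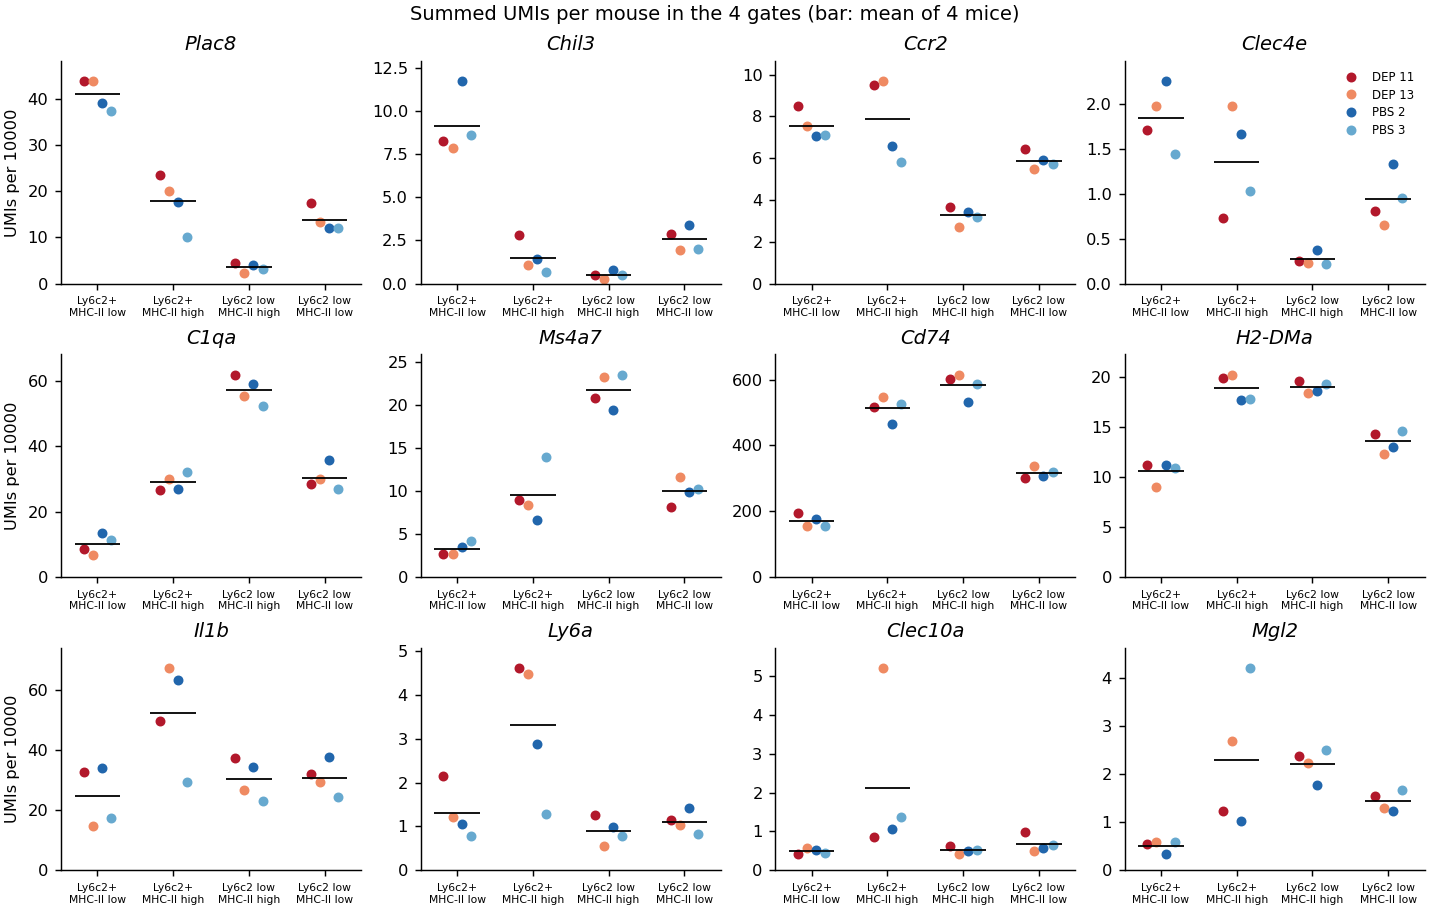
Each point is the summed UMIs of 1 mouse (UMIs per 10000, linear axes from 0) in 1 of the 4 gates for 12 genes, and bars give the mean of 4 mice. Plac8 and Chil3 fall and C1qa and Ms4a7 rise from left to the third gate, Ccr2 has means of 7.56 and 7.89 in the Ly6c2+ gates, where the mice overlap, and Il1b, Ly6a and Clec10a have their highest mean in the members.

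Interferon genes were compared because interferon-γ switches on CIITA. Of 18 genes of the interferon-γ response 12 were tested against the MHC-II low gate, 1 (Cxcl9) was higher and none was lower, with a median of -0.03. Against the Ly6c2 low MHC-II high gate 14 were tested and 2 were higher, Cxcl10 among them, with a median of -0.01. Cxcl9, a chemokine induced by interferon-γ, was 1.28 (DEP 11), 0.358 (DEP 13), 0.232 (PBS 2) and 0.171 (PBS 3) CP10k and its call (log2 difference 1.30, adjusted p = 0.0057) was lost without DEP 11 (0.53). Of 14 type I interferon genes 3 were lower than in the MHC-II low gate (Ifit1, Ifit3 and Usp18, of 12 tested) and 5 were higher than in the Ly6c2 low MHC-II high gate (Isg15, Irf7, Oasl2, Rtp4 and Ifi204, of 10 tested).

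Among 14 genes of adhesion and homing, Itgb7, the gut-homing integrin chain, was 0.328 ± 0.259 CP10k in the members, 1.14 ± 0.374 in the MHC-II low gate (log2 difference -1.41 ± 0.28, adjusted p = 2.1e-05) and 0.171 ± 0.0636 in the Ly6c2 low MHC-II high gate (log2 difference 1.1 ± 0.35, adjusted p = 0.0347). The second call was lost without DEP 11, PBS 2 or PBS 3 (0.83 to 1.18). The chemokine receptor Ccr1 (log2 difference 0.81, adjusted p = 8e-06) and the adhesion molecule Icam1 (log2 difference 0.71, adjusted p = 0.0114) were higher than in the MHC-II low gate. Icam1 was also higher than in the Ly6c2 low MHC-II high gate (log2 difference 0.81, adjusted p = 0.00178).

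Of 20 transcription factor genes 18 were tested against the MHC-II low gate. Runx3 (log2 difference 1.21, adjusted p = 3.4e-05) was among the higher genes, and Klf4 (-0.65), Klf2 (-1.06) and Nr4a1 (-0.62), factors of blood monocytes, were lower. Against the Ly6c2 low MHC-II high gate Nr4a1 (0.60) and Zeb2 (0.50) were higher and Irf8 (-0.50) was among the lower, of 19 tested. Irf8 was 2.7 ± 0.851 CP10k in the members and did not pass against the MHC-II low gate (log2 difference 0.14, adjusted p = 0.792), and its call against the Ly6c2 low MHC-II high gate was lost without PBS 3 (-0.41). The 7 listed genes of proliferation summed to 2.51 (DEP 11), 2.15 (DEP 13), 2.62 (PBS 2) and 2.74 CP10k (PBS 3) in the members, 178 UMIs in all, and each of the 7 had a UMI in at least 1 mouse. They summed to 2.14 CP10k over the Ly6c2+ MHC-II low and 3.56 over the Ly6c2 low MHC-II high barcodes. The Ly6c2 low MHC-II low barcodes had 5.26 CP10k. Mki67, Top2a, Birc5, Pclaf and Ube2c were too low to be tested in either comparison.

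The next question was whether DEP changed how many such cells the colon held. In DEP 11 the members made up 4.28% of kept barcodes, with a 95% Clopper-Pearson interval from 3.20 to 5.61. In DEP 13 they made up 1.73% (0.868 to 3.08). PBS 2 gave 3.32% (2.39 to 4.47) and PBS 3 gave 1.59% (1.02 to 2.36). These intervals cover counting error only, and each treatment had 1 mouse near 4% or 3% and 1 under 2%. The means were 3.01 ± 1.8% with DEP and 2.46 ± 1.22% with PBS (SD, n = 2 mice each), a difference of 0.552 percentage points (exact two-sided permutation test, p = 0.667, where 2 against 2 mice cannot go below 0.33). Of the Ly6c2+ barcodes, the members were 21.7% (DEP 11), 11.2% (DEP 13), 16.1% (PBS 2) and 9.6% (PBS 3). The difference of 3.64 points was again within the spread (exact permutation p = 0.667). The sign of both differences changed when DEP 11 was left out, to -0.724 and -1.61 points, and that of the first without PBS 3 (-0.309). At a common depth of 1000 UMIs the gate held 155 barcodes and the differences were -1.39 and -8.13 points. That gate is not the same, since any Ly6c2 UMI then passes the limit of 3 CP10k. After thinning 63 of the 126 members kept a Ly6c2 UMI, and 87 Ly6c2 low MHC-II high barcodes held such a UMI. No direction is given for either share. The sort on Ly6C or CD64 can also set these shares.

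**Figure D4:**
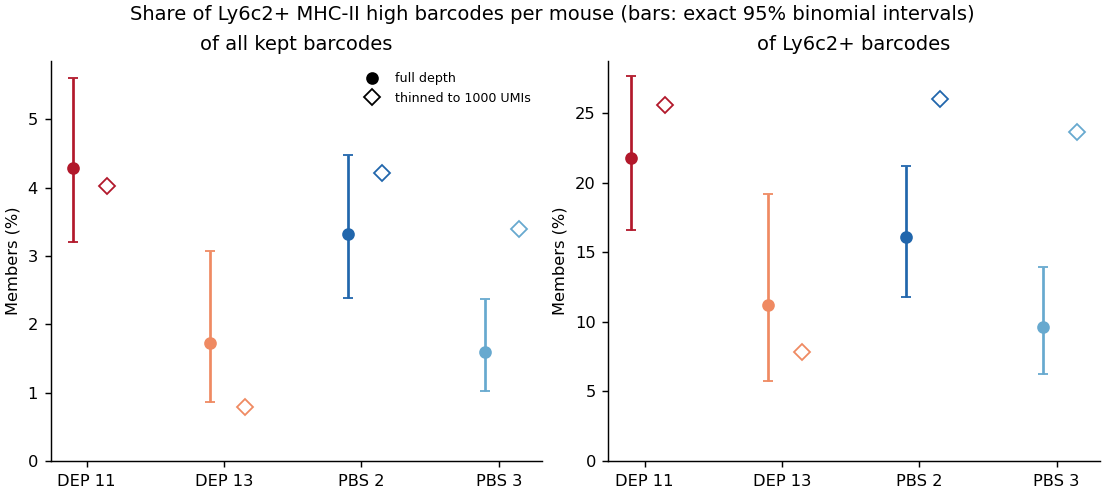
Filled circles give the percentage of members among all kept barcodes (left) and among Ly6c2+ barcodes (right) in each mouse with exact 95% binomial intervals. Open diamonds give the shares with the gate set again after thinning to 1000 UMIs, where any Ly6c2 UMI passes the limit. The 2 DEP mice lie at 4.28% and 1.73% and the PBS mice at 3.32% and 1.59%, so the groups overlap, and thinning moves PBS 3 from 1.59% to 3.39%.

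Genes of the members were then compared between DEP and PBS. Of 5871 genes tested on 4 sums with edgeR's quasi-likelihood test, 9 passed at an adjusted p of 5%, 2 higher (0.0341%) and 7 lower (0.119%) with DEP. DESeq2 called none, with 18 genes at an unadjusted p under 0.05 against 193 here, and limma voom called 7. With edgeR's own filter on low counts 1870 genes were tested and none was called, with 59 at an unadjusted p under 0.05. The log2 differences stayed close in both, at -1.50 and -1.42 for Hsp90aa1 and -2.63 and -2.47 for Hmox1, for example. Both groups were apart from each other in 1822 of the genes tested (31.0%), so a gene whose groups do not overlap is common at 2 mice each. The 9 genes are given with the value of each mouse, since the DEP sums held 61 members in all and 11 of them made up the whole of DEP 13. Left out in turn, DEP 11 gave 14 calls, DEP 13 gave 17, PBS 2 gave 2 and PBS 3 gave 3, with a lone mouse then assumed to vary like the other group.

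Of the 7 genes lower with DEP, Hspa1a, Hsp90aa1 and Dnajb1 encode chaperones. Hspa1a (chr17:34969190-34972156), an inducible heat shock protein with a near-identical copy in Hspa1b, was 12.3 (DEP 11), 9.14 (DEP 13), 25.8 (PBS 2) and 20.1 (PBS 3) CP10k (log2 difference -1.15 ± 0.21, adjusted p = 0.0001). The groups did not overlap. Hsp90aa1 (chr12:110690605-110702728) was 6.66 (DEP 11), 5.02 (DEP 13), 10.6 (PBS 2) and 21.9 (PBS 3) CP10k (log2 difference -1.49 ± 0.24, adjusted p = 2.7e-06). The co-chaperone Dnajb1 was 0.502 (DEP 11), 1.97 (DEP 13), 1.89 (PBS 2) and 4.28 (PBS 3) CP10k (log2 difference -1.74 ± 0.44, adjusted p = 0.0488), where the groups overlapped. All 3 belong to a list of 15 genes that rise when tissue is dissociated, of which 14 had a negative difference and 3 passed (median log2 difference -0.81, against -0.06 over all genes). That list summed to 122 and 136 CP10k in DEP 11 and DEP 13 and 182 and 165 CP10k in PBS 2 and PBS 3, and its part in these results was not tested. The call of Hspa1a was lost without PBS 2 (-0.94), and that of Hsp90aa1 without PBS 3 (-0.88). Dnajb1 lost its call without DEP 11 (-0.70), PBS 2 (-2.26) or PBS 3 (-1.08), and under most other filters tried. Hspa1a was 11.2 to 15.1 CP10k in the DEP mice and 18.6 to 30.2 CP10k in the PBS mice over the 3 other gates, so its difference was not confined to the members.

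Hmox1 (chr8:75093621-75100589), which encodes the heme-degrading enzyme heme oxygenase 1, was 0.593 (DEP 11), 0.179 (DEP 13), 2.32 (PBS 2) and 3.26 (PBS 3) CP10k (log2 difference -2.53 ± 0.47, adjusted p = 0.00012). It rested on 13 UMIs in 12 members of DEP 11 and on 1 UMI in 1 member of DEP 13. PBS 2 had 70 UMIs in 29 members and PBS 3 had 38 in 14. The groups did not overlap. The call was lost without PBS 2 or PBS 3 (log2 differences -2.78 and -2.30), and without DEP 11 the difference was -4.00. In the Ly6c2 low MHC-II high gate Hmox1 was 1.17 and 1.94 CP10k with DEP and 2.58 and 3.47 CP10k with PBS.

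Of the 20 inflammatory genes 14 were tested, 1 (Ccl5) was higher and 2 were lower with DEP, with a median log2 difference of -0.16. Both lower genes encode chemokines that recruit leukocytes. Ccl4 (chr11:83662584-83664683) was 3.28 (DEP 11), 7.35 (DEP 13), 16.5 (PBS 2) and 9.94 (PBS 3) CP10k (log2 difference -1.55 ± 0.25, adjusted p = 3.2e-06). Cxcl2 (chr5:90903871-90905938) was 2.6 (DEP 11), 1.43 (DEP 13), 9.59 (PBS 2) and 4.28 (PBS 3) CP10k (log2 difference -1.75 ± 0.31, adjusted p = 2.7e-05). In neither gene did the groups overlap, but 1 barcode of PBS 2 held 141 of the 289 Cxcl2 UMIs of that mouse, and without it PBS 2 stood at 5.06 CP10k. The call of Ccl4 was lost without DEP 11 (-1.0) or PBS 2 (-1.1), and that of Cxcl2 without PBS 2 (-1.03). In the Ly6c2 low MHC-II high gate Ccl4 was 10.5 and 15.4 CP10k with DEP and 14.6 and 12.4 CP10k with PBS, where the groups overlapped. In the Ly6c2+ MHC-II low gate it was 6.26 and 3.4 CP10k with DEP and 10.5 and 8.19 CP10k with PBS, with no overlap. Cxcl2 overlapped in both, at 10.3 and 9.23 CP10k with DEP and 9.01 and 9.48 CP10k with PBS in the Ly6c2 low MHC-II high gate and 4.62 and 2.61 CP10k with DEP and 6.65 and 4.59 CP10k with PBS in the Ly6c2+ MHC-II low gate.

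The calls in the other direction rested on DEP 11. Ccl5 (chr11:83525778-83530518), a chemokine of T cells and macrophages, was 4.56 (DEP 11), 0.179 (DEP 13), 0.963 (PBS 2) and 0.343 (PBS 3) CP10k (log2 difference 1.93 ± 0.41, adjusted p = 0.00236), so DEP 13 was the lowest mouse, and 1 barcode held 55 of the 100 UMIs of DEP 11. Without DEP 11 the difference was -2.12, and the call was also lost without PBS 2 (3.0) or PBS 3 (1.55) and with limma voom. Ly6i, a relative of Ly6c2 in the same gene cluster, was 2.05 (DEP 11), 0.538 (DEP 13), 0.431 (PBS 2) and 0.171 (PBS 3) CP10k (log2 difference 2.09 ± 0.52, adjusted p = 0.0488), with 17 of the 45 UMIs of DEP 11 in 1 barcode. It lost its call without DEP 11 (0.49), PBS 2 (3.07) or PBS 3 (1.79), and under most other settings tried. The remaining gene was Iglc2, at 0.319 (DEP 11), 0.538 (DEP 13), 0.299 (PBS 2) and 3.68 (PBS 3) CP10k (log2 difference -2.22 ± 0.56, adjusted p = 0.0488), which was as high in the other gates of PBS 3 and had a difference of 0.24 without that mouse. Neither Ly6i nor Iglc2 was called with limma voom.

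**Figure D5:**
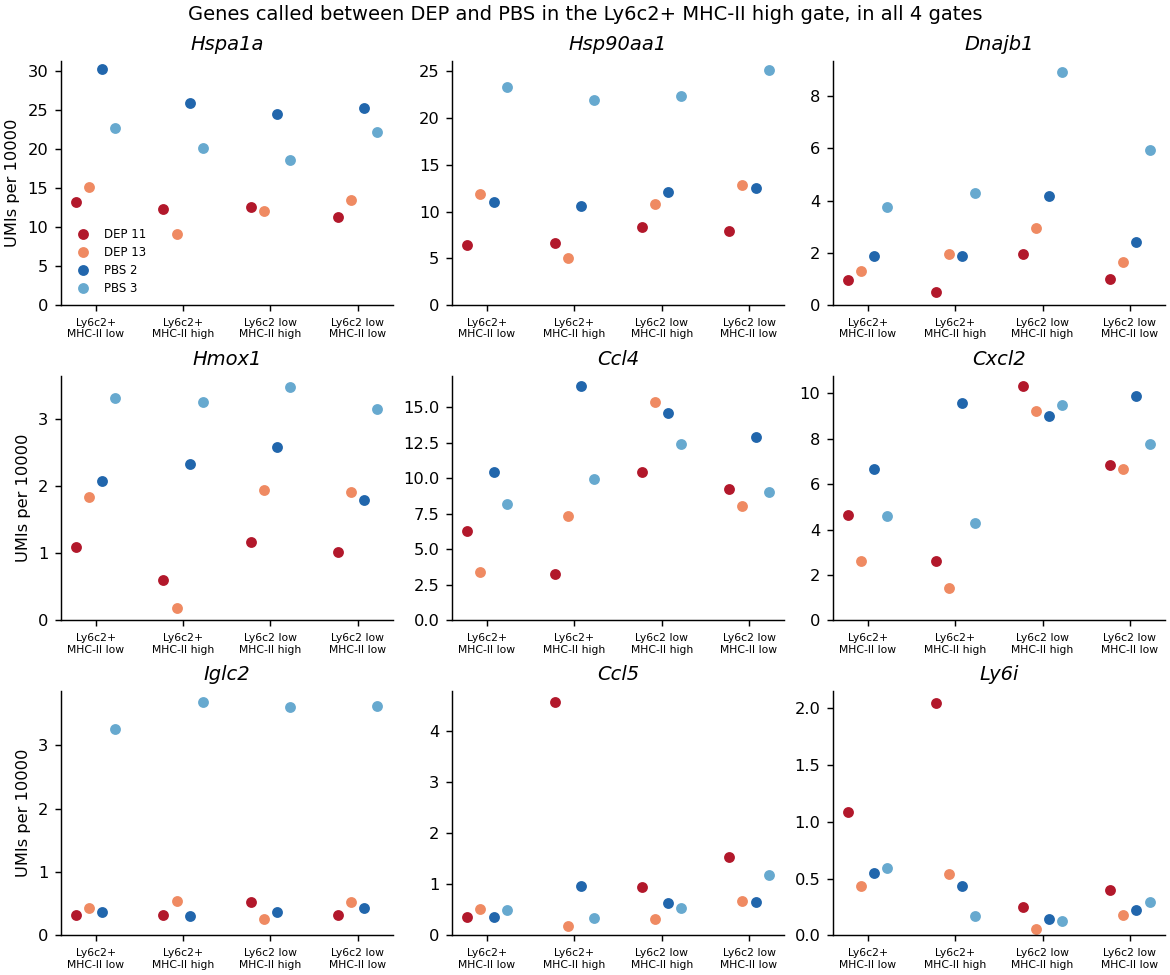
Points give the summed UMIs of each mouse (UMIs per 10000, linear axes from 0) for the 9 genes called between DEP and PBS in the members, shown in all 4 gates. Hspa1a is lower in both DEP mice in every gate, Ccl5 and Ly6i are high in DEP 11 members, and Iglc2 is near 3.68 in PBS 3 members and as high in that mouse's other gates.

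No other listed gene passed between DEP and PBS in the members. None of 13 class II machinery genes, 16 monocyte genes, 21 macrophage genes, 13 interferon-γ and 11 type I interferon genes tested was called, with median log2 differences of 0.10, -0.08, -0.15, 0.45 and -0.40. At these depths an unchanged level is not shown by a missing call. Ccr2 was 9.58 ± 0.134 CP10k with DEP and 6.2 ± 0.527 with PBS (SD, n = 2 mice each; log2 difference 0.54 ± 0.25, adjusted p = 1 by edgeR), with no overlap. Cd74 (log2 difference 0.02 ± 0.12), H2-DMa (0.10 ± 0.21) and Ciita (0.55 ± 0.52) did not pass. Plac8 (0.57 ± 0.21), Chil3 (0.92 ± 0.41), Fn1 (-0.66 ± 0.60), Itgb7 (-0.53 ± 0.67) and Irf8 (0.07 ± 0.34) did not pass either, nor did C1qa (-0.15 ± 0.19), Cx3cr1 (0.03 ± 0.33), Adgre1 (-0.25 ± 0.34) and Mrc1 (0.35 ± 0.45). Il1b was 58.3 ± 12.5 CP10k with DEP and 46.3 ± 24 with PBS (log2 difference 0.23 ± 0.17, adjusted p = 1 by edgeR). In DEP 13, 1 barcode held 145 of the 375 Il1b UMIs. The differences of Tnf (0.38 ± 0.55), Nlrp3 (-0.33 ± 0.71), Casp1 (0.01 ± 0.57) and Il10 (0.20 ± 1.1) were smaller than their standard errors. Cd209a (-1.56 ± 0.57) and Cxcl9 (2.14 ± 0.63, adjusted p = 0.222) had larger differences that failed the correction, and Vcan and Saa3 were too low to be tested.

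Finally, the DEP effect in the members was tested against the DEP effect in the Ly6c2+ MHC-II low gate as an interaction. Of 5681 genes 1 passed (0.0176%), Saa3 (chr7:46711998-46715700), which encodes the acute phase protein serum amyloid A3. In the members it was at 0 in both DEP mice, 1.63 CP10k in PBS 2 and 0 in PBS 3, and in the MHC-II low gate 0.519 (DEP 11), 3.23 (DEP 13), 2.18 (PBS 2) and 0.0847 (PBS 3) CP10k. The PBS 2 value came from 11 barcodes with 49 UMIs, of which 38 UMIs were in 1 barcode. A count of 0 over all DEP members allows up to 0.109 CP10k (3 counts), and no fold is given, since PBS 3 was at 0 as well. The adjusted p by edgeR was 0.0006, and Saa3 was not called without DEP 13, with DESeq2, with the MHC median of each mouse or without the barcodes of highest doublet score. Without PBS 2 no UMI was left in the members and it was not tested. The nearest genes on the other side, Cxcl1, Ccl5, Chil3, Ccl12 and Ccl7, failed the correction (adjusted p by edgeR 0.0661 to 0.808).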

How the data were processed

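UMI counts per gene and cell barcode of 4 libraries, 1 mouse each, were deposited by the authors as raw counts. Per the labels' processing notes they were made with Cell Ranger, STAR 2.6.1a and R 3.5.1 on mm10. The table held 28692 genes, and each barcode's suffix named its mouse. No per-sample columns of another series were present. Members and gene lists were chosen with earlier results of these data known.

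UMIs were summed per mouse and gate. Genes were tested where 2 or more sums exceeded 1 CPM and 5% of barcodes or more held a UMI, using edgeR 4.0.16 (TMM, quasi-likelihood test, Benjamini-Hochberg 5%) in R 4.3.3, with the mouse as block between gates, since both gates came from the same animal. Shares were compared by exact permutation of mice. DESeq2 1.42.0, limma 3.58.1 (voom), other filters and gates, and each mouse left out were alternatives. The genes named were a fixed panel of genes, of which some are not reported here, those with the smallest p in each direction (up to 10 between gates, changed alike in all mice, and up to 5 for DEP), and examples of lists. Data of 5837 genes were simulated, with 100 genes changed at each of 2 sizes, and gave 4 false calls. The DEP comparison recovered 25% of log2 changes of 1 and 88% of changes of 2. The changed genes were drawn from the better-counted ones, and all genes were given the same spread. These figures therefore do not cover low genes or genes that vary more between mice. Doublets were scored with scanpy 1.11.5 and kept. Barcode strings shared between libraries were only counted. Library totals of 4489342 to 10293703 UMIs set the precision.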

Additional observations from a re-analysis of the deposited data

Results flagged for a closer look

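The fit of the DEP effect on Saa3 in the members against that in the Ly6c2+ MHC-II low gate gave a difference of -8.45 on the log2 scale (edgeR, adjusted p = 0.0006), the test of the difference itself. The members held 0 UMIs in both DEP mice (61 barcodes) and in PBS 3, and all 49 UMIs lay in PBS 2, 38 of them in 1 barcode. The MHC-II low gate held 177 UMIs with DEP (1.42 CP10k) and 275 with PBS (1.27 CP10k). The fitted value rests on samples at 0 and is no size of effect, and the call was not made with DESeq2, without DEP 13, with each mouse's MHC median or without top doublet scores.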

How the results depend on the processing

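The count of genes between the members and the Ly6c2+ MHC-II low gate was 190 with DESeq2, 212 with no replicate block, and 256 to 292 with a mouse left out. Against the Ly6c2 low MHC-II high gate it was 192 with DESeq2, 147 with limma voom, 197 with no replicate block, 97 with separate UMIs and 174 to 353 with a mouse left out. Between DEP and PBS it was 0 with DESeq2 (18 genes at an unadjusted p under 0.05) and 0 with edgeR's own filter (59 such genes of 1870 tested), and 2 to 17 with a mouse left out. For the difference of effects it was 0 with DESeq2 (21 genes at an unadjusted p under 0.05) and without top doublet scores (173 such genes), 3 with the likelihood ratio test, at least 2000 UMIs, the 5% mitochondrial limit or each mouse's MHC median, 4 with at least 2 Ly6c2 UMIs, and 1 to 6 with a mouse left out. It was 5 without T and B barcodes, an alternative chosen after seeing the data. The cause was not tested.

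The shares differed by -1.39 and -8.13 points when thinned, and by -0.724 to 1.83 and -1.61 to 8.9 points with a mouse left out. No paired analysis was possible because DEP 11, DEP 13, PBS 2 and PBS 3 share no replicate number between treatments.

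Between DEP and PBS the log2 difference turned for Cd74 (-0.015 with no gene filter, -0.022 without top doublet scores), Cx3cr1 (-0.0081 with voom, -0.23 with at least 2 Ly6c2 UMIs), Mrc1 (-0.099) and Tnf (-0.26) with at least 2 Ly6c2 UMIs, Casp1 (-0.14 with voom, -0.017 with 2000 UMIs, -0.037 with 5% mitochondrial, -0.11 with at least 2 Ly6c2 UMIs, -0.0015 without T and B barcodes) and Il10 (-0.039 with DESeq2, -0.0051 with voom). With a mouse left out it ran from -0.59 to 0.88 for Casp1, -2.12 to 3.0 for Ccl5, -3.10 to 2.06 for Cd209a, -0.050 to 0.12 for Cd74, -0.20 to 1.61 for Chil3, -0.16 to 0.28 for Cx3cr1, -4.03 to 0.54 for Il10, -0.20 to 0.92 for Il1b, -0.47 to 0.66 for Irf8, -5.97 to 0.37 for Itgb7, -0.55 to 0.28 for Nlrp3 and -0.54 to 1.47 for Tnf. Against the MHC-II low gate it turned for Ccr2 (-0.091 with no gene filter, -0.063 with 2000 UMIs, -0.024 with 5% mitochondrial, -0.12 with separate UMIs), Tnf (-0.097 with separate UMIs), Nlrp3 (-0.15 with 2000 UMIs) and Irf8 (-0.030 with no gene filter), and with a mouse left out it ran from -0.34 to 1.53 for Cd209a and -0.13 to 0.31 for Nlrp3. Against the Ly6c2 low MHC-II high gate it turned for Tnf (-0.051 with no gene filter, -0.22 with at least 2 Ly6c2 UMIs, -0.27 with separate UMIs), Cxcl9 (0.37 with separate UMIs) and Saa3 (-0.82 with each mouse's MHC median, -0.56 without top doublet scores), and with a mouse left out it ran from -0.036 to 2.20 for Cd209a, -0.016 to 0.67 for Nlrp3 and -0.17 to 0.25 for Tnf. For the difference of effects it ran from -2.48 to 3.31 for Ccl5 and -3.71 to 4.61 for Cxcl1 with a mouse left out. Of these only Cd209a and Saa3 between gates and Ccl5 between DEP and PBS had passed the test.

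The DEP comparison rested on 2 mice a group, and 11 members with 55799 UMIs made up DEP 13.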
